A study of Mus musculus with 12 samples.

Results

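The genes described here encode 10 transcription factors of the airway epithelium, Foxa1, Foxa2, Foxa3, Spdef, Foxj1, Sox2, Sox9, Trp63, Grhl2 and Ehf, and the data are their N6-methyladenosine (m6A) peaks in mouse lung. A peak counted as theirs when the deposited annotation assigned it to one of these genes, or when the peak had been called on the exons of one of them. By this rule 41 of the 53394 peaks in both deposited lists belonged to the genes, with 21 among the 27292 OVA peaks and 20 among the 26102 PBS peaks. The rule found peaks for 9 of the 10 genes, and Trp63 had none.

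Lungs came from female BALB/c mice of 6 to 8 weeks in 2 groups. The OVA group was sensitized with ovalbumin and aluminum hydroxide on days 0 and 7 and inhaled a 3% ovalbumin aerosol for 30 minutes daily on days 14 to 20, which gives a model of acute allergic asthma, and the PBS group was given phosphate-buffered saline. From 3 mice per group an antibody against m6A pulled down RNA fragments (IP), and the same fragments without antibody were sequenced as input, 12 libraries in all. The authors' peak caller gave 1 list per group, so the values used here have no replicate error and were not tested between groups. The lists hold no read numbers, and the reads behind each peak are unknown.

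Airway epithelium holds ciliated, secretory, mucous and basal cells, and each fate depends on a small set of DNA-binding proteins. In allergic airways, mucous metaplasia turns club cells into goblet cells, a change in which Spdef and Foxa3 act as drivers and Foxa2 as a brake. m6A is laid down on messenger RNA mostly near the stop codon and in the 3' UTR, and it marks transcripts for binding by reader proteins that act on their decay and translation.

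For each peak the lists give a fold enrichment, the ratio of IP to input signal within the peak, and the log10 of the caller's p for that enrichment. All coordinates are on GRCm38, counted from 1. The same 9 genes had peaks under both conditions, and 0 of them was found in 1 list alone. Among all 17415 genes with an assigned or called peak, 10.2% had one in the OVA list only and 6.87% in the PBS list only. Lung is a mixture of cells, and a peak can be called only where enough RNA is present, so fewer cells of a type and less RNA per cell cannot be told apart here.

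Peaks of these genes lay high in the range of the lists. Median fold enrichment was 12.9 over their 21 OVA peaks, against 5.59 over the whole OVA list, and 11 over their 20 PBS peaks, against 5.44. Counting only peaks called on the genes themselves, the medians were 13.5 for OVA and 15.8 for PBS, so which list had the higher median depended on the membership rule. A fold enrichment of at least 10 was reached by 13 OVA peaks and 12 PBS peaks of the set, while 29.8% and 28.1% of all peaks did so. The spread within the set was wide, from 2.41 to 42.4 for OVA and from 1.51 to 38.5 for PBS.

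Taking only the strongest peak called on each gene, the median for the 9 genes was 27.7 for OVA and 17.3 for PBS. The corresponding medians over every gene with a called peak were 9.12 and 8.78. Genes with an annotation containing the words DNA-binding transcription factor activity stood between, at 13.2 over 591 genes for OVA and 11.4 over 594 genes for PBS. Longer terms containing these words, such as the RNA polymerase II-specific form, also counted. Among the 11215 annotated genes used for the terms further below, 497 held the exact term, so these 2 groups are wider than that term. Whether the distance of the 9 genes from other transcription factor genes exceeds chance was not tested.

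**Figure D1:**
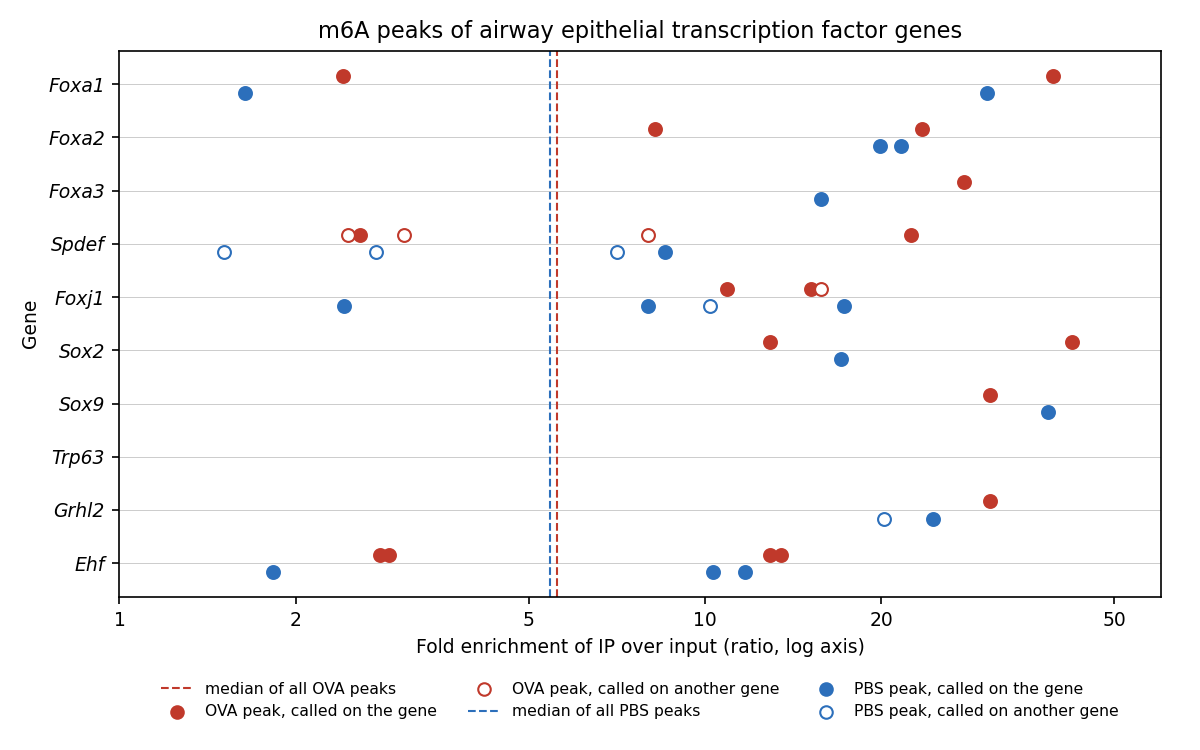
Fold enrichment of IP over input (log axis) for each peak of the 10 genes, OVA peaks in red and PBS peaks in blue; filled points were called on the gene itself, open points on a neighboring gene while carrying the listed gene's name by assignment, and dashed lines mark the median of all peaks (5.59 and 5.44). Most genes have a peak well to the right of the dashed lines in both lists, and the row of Trp63 is empty. Foxa1, Foxa2, Spdef, Foxj1 and Ehf have further peaks of lower enrichment, as do Sox2 in the OVA list and Grhl2 in the PBS list.

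Most of the peaks carried the region label 3' UTR. The annotation gave it to 16 of 21 OVA peaks and 16 of 20 PBS peaks of the set. Over all peaks the share was 52.7% in each list. Among peaks called on the genes themselves it was given to 13 of 17 for OVA and 13 of 15 for PBS. Each peak has 1 label, here and below, and a long peak can run beyond that region. The PBS peak of Sox2, labeled 3' UTR, covered 1044 bases from 267 bp after a transcript start. A 5' UTR was given for 3 OVA peaks, or 14.3%, and 1 PBS peak, or 5%, with 11.6% and 11.4% over all peaks. Peaks of the set were also long, with a median of 451 exonic bases for OVA and 495 for PBS, where all peaks had medians of 329 and 327.

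Peaks of the set were shared between the lists about as often as other peaks. Exonic bases of 18 of the 21 OVA peaks overlapped a PBS peak by at least 1 bp, leaving 3, or 14.3%, without a partner, and 19.4% of all OVA peaks had none. Of the 20 PBS peaks 1, or 5%, lacked an OVA partner, beside 14.5% of all PBS peaks. Both shares were under the background, the first by about 1 peak. With peaks under a fold enrichment of 2 removed from both lists, 6 OVA peaks of the set, or 28.6%, had no partner, above the 19.5% of all OVA peaks so filtered, so the side of the background on which the OVA share lay depended on that threshold.

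In the shared peaks fold enrichment was compared as the ratio of the OVA value to the value of the PBS peak with the largest overlap. It was at least 2-fold higher in the OVA list for 2 of 18 pairs, 1 each at Spdef and Sox2, where 7.63% of all 22006 pairs were that much higher. It was at least 2-fold lower for 0 of 18, where the background was 6.79%. The ratio exceeded 1 in 15 of the 18 pairs and had a median of 1.30, against 59.6% of all pairs and a median of 1.08. Leaving out pairs called on a neighboring gene, it exceeded 1 in 11 of 14, with the same median of 1.30. Division by 1.08, the median over all pairs, moves every pair alike and by construction sets the share of all pairs above 1. It left the same 15 of 18 pairs above 1, the lowest of them at 1.004 (Foxa2), and is no separate check.

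**Figure D2:**
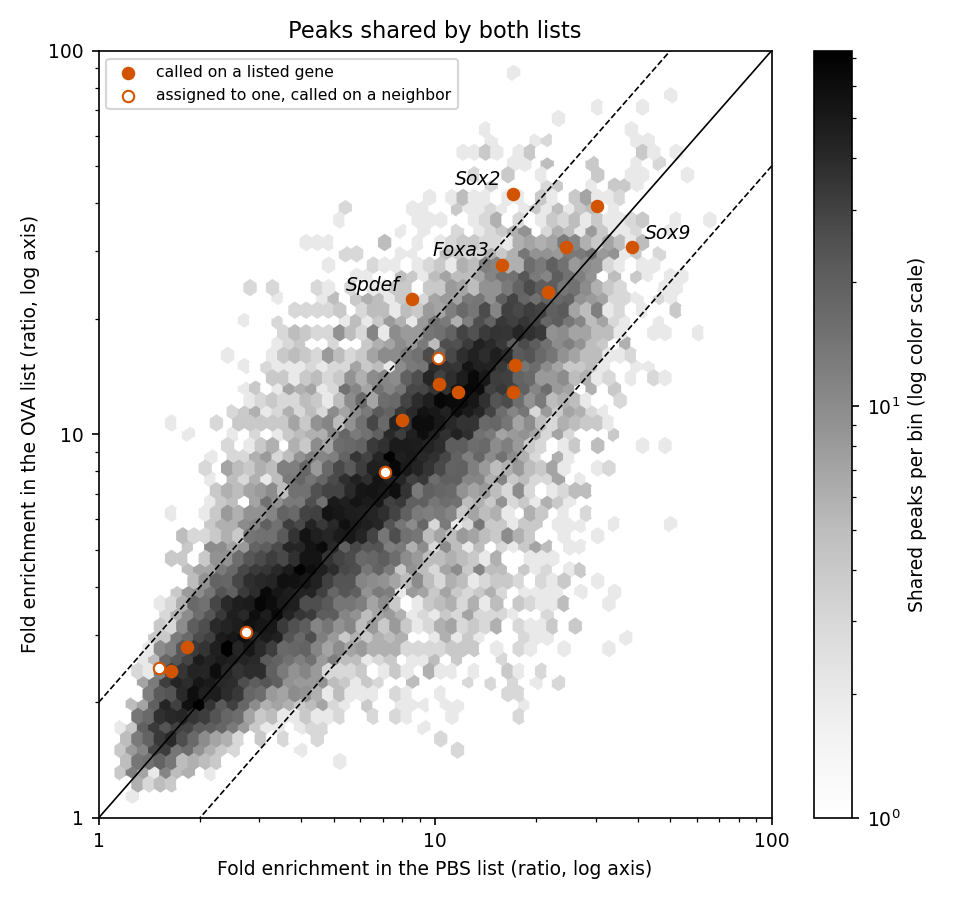
Fold enrichment in the OVA list against the PBS list (both log axes, ratio of IP to input) for all 22006 pairs of overlapping peaks, with gray bins by number of peaks, the solid line at equal values, dashed lines at 2-fold differences and orange points for pairs of the listed genes; 38 pairs lie beyond the axis limit of 100. Spdef and Sox2 each have 1 point above the upper dashed line, at 22.5 against 8.55 and 42.4 against 17.1, and the other 16 pairs lie between the dashed lines.

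Spdef (ENSMUSG00000024215, chromosome 17), an ETS factor that drives goblet cell differentiation and mucus production, had the largest ratio of the set. Its 3' UTR peak lay at chr17:27714442-27714891 in the OVA list, with a fold enrichment of 22.5 and a log10 p of -49.5. In the PBS list a peak at chr17:27714591-27714950 had a fold enrichment of 8.55 and a log10 p of -6.02. The peaks shared 301 exonic bases, and the ratio of 2.63 was above that of 96.0% of all pairs. Relative to all peaks of its own list, the OVA value was above 94.2% and the PBS value above 65.9%.

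The OVA list held another Spdef peak that had no PBS partner. It lay in the 5' UTR at the other end of the gene, chr17:27728626-27728895, with a fold enrichment of 2.57 and a log10 p of -8.74. This is a weak peak, higher than 19.7% of the OVA list. Exonic bases covered by peaks called on Spdef came to 720 for OVA and 360 for PBS.

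A further 3 peaks in each list carried the name of Spdef by assignment but had been called on D17Wsu92e, a neighboring gene. In the OVA list they lay outside the gene, with far edges 29217 to 39136 bp upstream of a Spdef transcript start. Their fold enrichments were 7.99, 2.46 and 3.06 for OVA and 7.08, 1.51 and 2.74 for PBS. All 3 peaks called on D17Wsu92e in each list were assigned to Spdef, so these values describe the RNA of the neighbor and not Spdef.

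Foxa3 (ENSMUSG00000040891, chromosome 7), a forkhead factor that is induced in goblet cells, had 1 peak per list, in the 3' UTR. The OVA peak at chr7:19013943-19014601 had a fold enrichment of 27.7 and a log10 p of -56.7. The PBS peak at chr7:19014003-19014212 had a fold enrichment of 15.8 and a log10 p of -4.50. The ratio of 1.75 was below the 2-fold limit and exceeded that of 89.0% of all pairs. The PBS peak spanned 210 bases, all within the 659 bases of the OVA peak.

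Foxa2 (ENSMUSG00000037025, chromosome 2), which restrains mucous differentiation and is needed for normal alveolar and airway development, was enriched over a long stretch that ran from the 3' end of the gene across 2 exonic blocks. In the OVA list a single peak of 2040 exonic bases ran over chr2:148042877-148045366, with a fold enrichment of 23.5 and a log10 p of -894. In the PBS list the same stretch was called as 2 peaks, chr2:148042907-148043867 and chr2:148043927-148045366, with fold enrichments of 19.9 and 21.6 and log10 p of -1270 and -216. The first was annotated as 3' UTR and the other as exon. The 2 PBS peaks together covered 1951 exonic bases. Their mean weighted by exonic bases was 20.8, and the OVA value was 1.13 times that mean, so the number of peaks differed where covered length and enrichment were close.

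At the 5' end of Foxa2 the OVA list held a peak that overlapped no PBS peak. It consisted of 2 exonic blocks, chr2:148045878-148045948 of 71 bases and chr2:148046860-148046939 of 80 bases, annotated as 5' UTR. Fold enrichment was 8.21, above 63.1% of the list, with a log10 p of -3.57, the weakest log10 p among the 21 OVA peaks. Both blocks reached into transcript starts annotated in RefSeq, and the bases they cover there are shown because this stretch was called in the OVA list alone. Of the 20 covered bases of the upstream start and the 50 of the downstream start, the last 30 of the latter are given, on the minus strand from RefSeq (GRCm38.p6), with capitals marking an ATG triplet.
chr2:148046920-148046939: tcctacgcgcctcctgaggc
chr2:148045899-148045928: aaattttaaaccgccATGcactcggcttcc
The letters GGAC, a core form of the m6A consensus, were searched on the transcript strand alone and occurred in neither covered stretch. Among the 50 transcribed bases at the end of each promoter window in RefSeq, 18.9% of 32851 windows held GGAC, as did 3 of the 7 windows of the 5 listed genes that the table covers. No match says only that these letters are not in these bases.

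Foxa1 (ENSMUSG00000035451, chromosome 12), a pioneer factor that acts with Foxa2 in branching and in epithelial differentiation, had 2 peaks per list, both in the 3' UTR. The longer one was at chr12:57541886-57543325 in the OVA list, with a fold enrichment of 39.3, and at chr12:57541767-57543325 in the PBS list, with 30.3. Its log10 p was -287 and -480. These values were above 98.8% and 98.2% of their lists, and the ratio was 1.30. A short peak beside it had fold enrichments of 2.41 and 1.64, low in both lists.

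Foxj1 (ENSMUSG00000034227, chromosome 11), the master regulator of motile cilia, carried peaks at both ends of its transcript. The 3' UTR peak at chr11:116330942-116332253 in the OVA list had a fold enrichment of 15.2 and a log10 p of -291, and its PBS partner at chr11:116330913-116332253 had 17.3 and -313. The 5' UTR peak, of 2 blocks, lay at chr11:116334443-116335369 with 10.9 in the OVA list and at chr11:116334413-116335369 with 7.98 in the PBS list. The ratios of 0.879 and 1.37 pointed in opposite directions, and neither reached 2-fold. Edges of these peaks differed by at most 30 bp between the lists.

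The PBS list alone held a peak of 61 bases at chr11:116330793-116330853. It had been called on Foxj1 and assigned to n-R5s74, a ribosomal RNA gene, with a fold enrichment of 2.42 and a log10 p of -2.53. A last peak was assigned to Foxj1 but called on Rnf157, a neighboring gene, with fold enrichments of 15.8 for OVA and 10.2 for PBS. Its far edge lay 3233 bp upstream of a Foxj1 transcript start in the OVA list, and the whole peak lay outside Foxj1. The Foxj1 name therefore does not describe its RNA.

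Sox2 (ENSMUSG00000074637, chromosome 3), which sets proximal airway identity and maintains club and basal progenitors, was the reverse of Foxa2 in the way its peaks were divided. The OVA list had 2 peaks, chr3:34650614-34651061 with a fold enrichment of 12.9 and a log10 p of -33.7, and chr3:34651120-34651686 with 42.4 and -44.1. The PBS list had 1 peak over both, chr3:34650673-34651716, with 17.1 and -39.7. The ratio was 0.754 for the upstream OVA peak and 2.48 for the downstream one, which was labeled 3' UTR. Weighted by exonic bases, the OVA mean was 29.4 and its ratio to the PBS peak 1.72, under the 2-fold limit. This mean was chosen after the values were seen, and with it the 2-fold difference at Sox2 was lost.

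Sox9 (ENSMUSG00000000567, chromosome 11), a factor of distal lung tips in development and of submucosal glands and airway cartilage in the adult, had 1 peak per list, in the 3' UTR. The OVA peak at chr11:112785453-112786172 had a fold enrichment of 30.7, and the PBS peak at chr11:112785513-112786023 had 38.5. This was the highest fold enrichment of the set in the PBS list, and Sox9 and Foxj1 were the 2 genes whose strongest peak was higher there. The log10 p ran the other way and far apart, -816 for OVA and -20.8 for PBS. Taken with its sign, the PBS value minus the OVA value exceeded that of 99.3% of all pairs with finite values. Of the cartilage markers looked up beside it, Col2a1 had no peak in either list and Acan had 1 peak in the OVA list alone, so the lists do not show which cells the Sox9 RNA came from.

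Grhl2 (ENSMUSG00000022286, chromosome 15), which maintains epithelial junctions and barrier, had 1 peak called on it in each list. Blocks of 98 and 1457 bases within chr15:37358379-37362193 made up the OVA peak, with a fold enrichment of 30.7 and a log10 p of -425. The PBS peak within chr15:37358408-37362253 had 24.5 and -543. Both lay within the RefSeq span of Grhl2, at chr15:37232821-37363569, and were annotated as 3' UTR, but carried the name of Gm28221, an antisense-class gene whose start was 5012 bp beyond the OVA peak. The assigned name alone would therefore miss the only peaks called on Grhl2. The ratio was 1.25.

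At the other end of Grhl2 the PBS list had a peak at chr15:37232028-37233086, with a fold enrichment of 20.2, that was assigned to Grhl2 and called on Gm16136. The OVA list had a peak at chr15:37232028-37232998, with a fold enrichment of 26.5, that was both called on and assigned to Gm16136. The stretch was thus enriched in both lists, over 853 exonic bases for OVA and 941 for PBS, and the assigned name differed. Gm16136 is a long noncoding RNA gene that overlaps the start of Grhl2, and most exonic bases of the PBS peak lay before the RefSeq start of Grhl2 at 37232821. The lists give no strand for a peak, so RNA of these neighbors cannot be told apart in the part where they overlap.

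Ehf (ENSMUSG00000012350, chromosome 2), an ETS factor restricted to epithelia, had 4 OVA peaks and 3 PBS peaks. All of them were placed in the 3' UTR and assigned to a retained-intron transcript of the gene. The strongest OVA peak at chr2:103264152-103264932 had a fold enrichment of 13.5, and its PBS partner with the same start had 10.3. The next, at chr2:103266460-103267005, had 12.9, against 11.7 for its partner. A weaker shared peak at chr2:103263523-103263973 had 2.79 and 1.83. The ratios were 1.31, 1.10 and 1.52, a narrow range in which the OVA value was always the higher. The OVA list alone held a short peak of 121 bases at chr2:103265501-103265621, with a fold enrichment of 2.89 and a log10 p of -3.67.

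**Figure D3:**
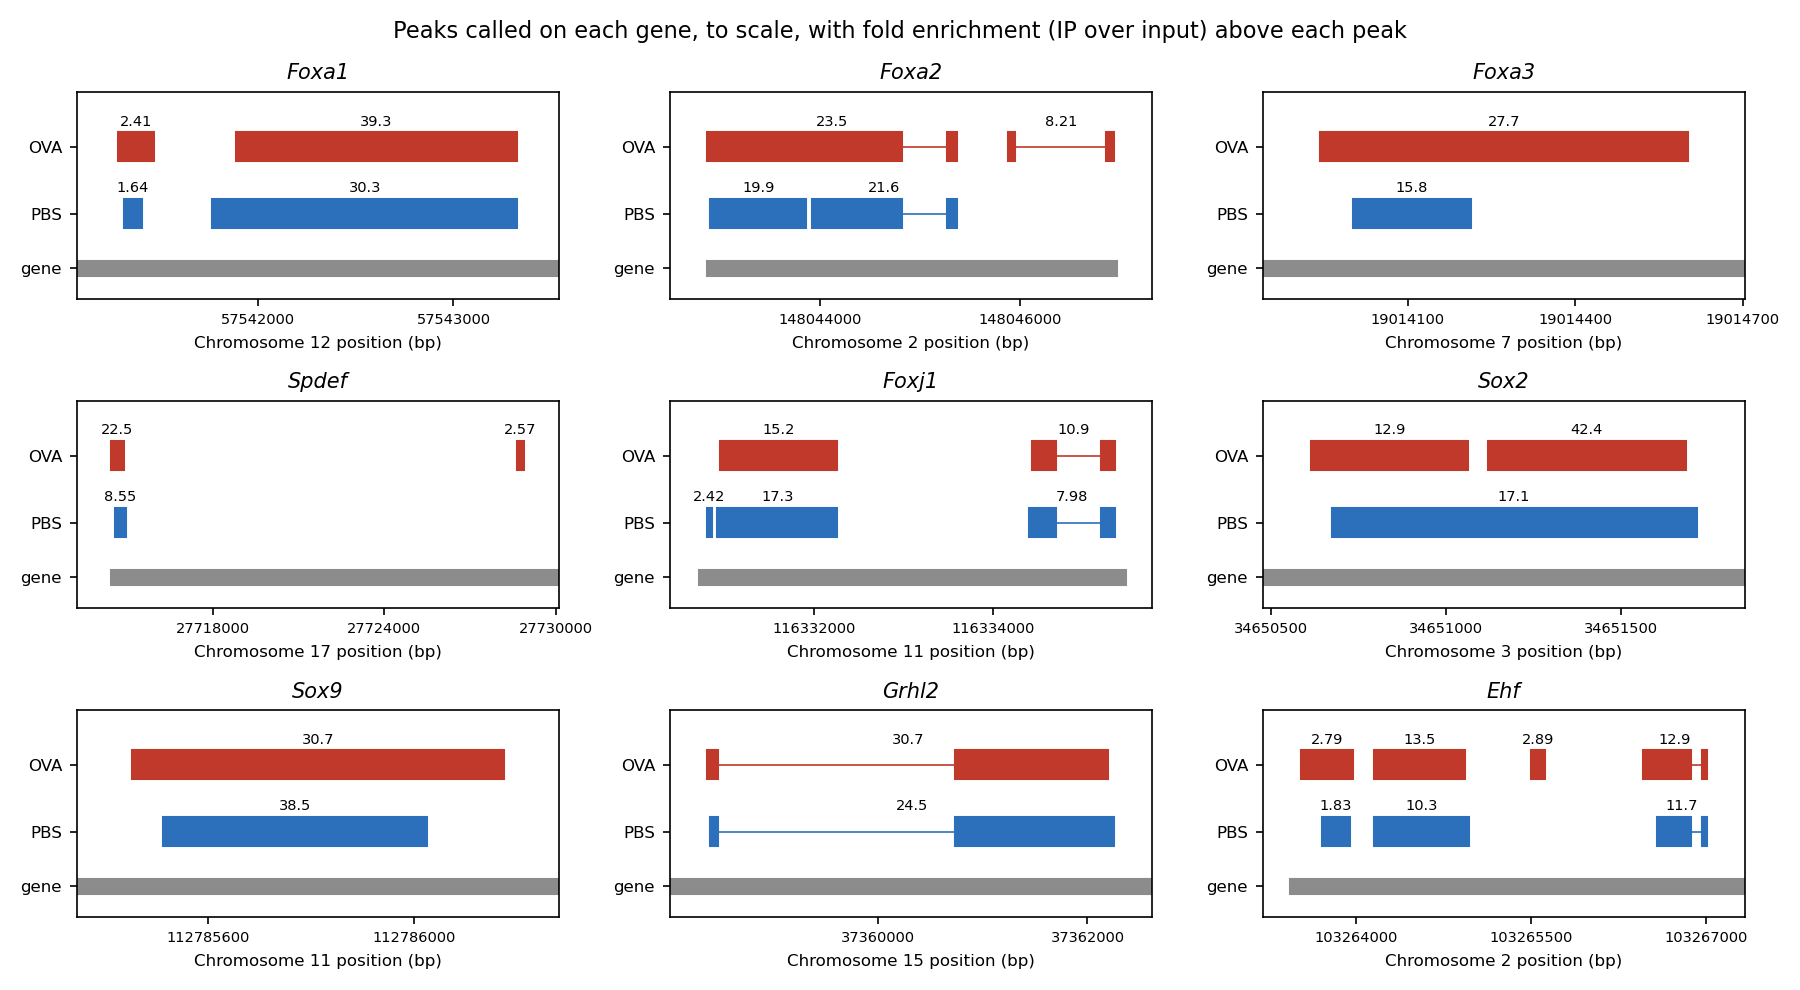
Peaks called on each of 9 genes, OVA in red and PBS in blue, with boxes for exonic blocks, thin lines for skipped introns, the fold enrichment (ratio of IP to input) above each peak and the RefSeq gene span in gray; the horizontal axis is the chromosome position in bp and has its own scale in each panel. Foxa2 and Sox2 show the same stretch divided differently in the lists, and unpartnered peaks are seen at Foxa2 (8.21), Spdef (2.57) and Ehf (2.89) in the OVA list and at Foxj1 (2.42) in the PBS list.

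Trp63 (ENSMUSG00000022510, chromosome 16), the factor that defines basal cells, had no peak in either list. None touched its RefSeq span at chr16:25683763-25892088 or the 3000 bp on each side. Of 8 other basal cell genes, 3 had a called peak in both lists, with Ngfr, Itga6 and Dst at 13.5, 10.8 and 11.4 for OVA and at 11.8, 12 and 15.4 for PBS. The other 5, among them the basal keratin genes, had none. No expression values were used here, so a missing peak does not separate unmethylated RNA from RNA too scarce for a call.

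Across the 9 genes with peaks, the strongest called peak was higher in the OVA list for 7 and lower for 2. Among all 12283 genes with a called peak in both lists it was higher in the OVA list for 60.3%. The order in the OVA list ran from Sox2 at 42.4 and Foxa1 at 39.3, through Sox9 and Grhl2, both at 30.7, to Foxj1 at 15.2 and Ehf at 13.5. In the PBS list Sox9 at 38.5 and Foxa1 at 30.3 came first, and Ehf at 11.7 and Spdef at 8.55 last. With no replicate values in the lists, it is unknown which neighbors in these orders differ beyond error.

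Some annotation terms were held by several of the genes. The term for lung epithelial cell differentiation was given to 4 of the 9, Foxa1, Foxa2, Sox9 and Grhl2, and to 7 of all 11215 annotated genes in the lists. Epithelial tube branching in lung morphogenesis was given to Foxa1, Foxa2 and Sox9, among 17 genes, and endocrine pancreas development to Foxa2, Foxa3 and Sox9, among 13. The lung terms rest on knowledge of the kind that led to the choice of these genes, and none of the terms adds a measurement.

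Other transcription factors of lung epithelium were looked up beside the set. Of 31 such genes, 24 had a called peak in both lists, Gmnc in the OVA list only, Grhl3 in the PBS list only, and 5 in neither. Of all 14988 genes with a called peak in either list, 82.0% had one in both. That share leaves out genes called in neither list, whereas the 31 include 5 of them. With these 5 set aside, 24 genes had a called peak in both lists and 1 in each list alone. Over the 24 genes called in both lists, the median of the strongest peaks was 12.7 for OVA and 10.5 for PBS. The highest in the OVA list were Foxp2 at 52.9, Gata6 at 43.6 and Cebpa at 42.0, and in the PBS list Mcidas at 40.0, Cebpa at 36.8 and Sox17 at 20.8.

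Genes of mucous and secretory cells were looked up without Spdef and Foxa3. Of 16, a called peak was found in both lists for 5, in the OVA list only for 4, in the PBS list only for 0 and in neither for 7, of which Scgb3a1 had assigned peaks only, 1 for OVA and 3 for PBS. Among all 14988 genes with a called peak, 10.8% had one in the OVA list only and 7.22% in the PBS list only. These shares leave out genes without a called peak, whereas the 16 include 7 such genes. On the base of these shares, the 4 stand beside only the 5 called in both lists. The 4 were Clca1, Ern2, Gcnt3 and Cyp2f2, with fold enrichments of 3.55, 4.88, 38.6 and 1.93. Clca1, Ern2 and Gcnt3 are goblet cell genes and Cyp2f2 a club cell gene. Over the 5 genes called in both lists, the median of the strongest peaks was 7.33 for OVA and 10.9 for PBS, with 4 genes lower for OVA and Scgb1a1 higher, at 2.90 against 2.20. The mucin genes Muc5ac and Muc5b had peaks in both lists, at 10 and 7.33 for OVA and at 20.7 and 10.9 for PBS, as did Fcgbp, at 16 and 23.7. The part that the amount of goblet cell RNA has in the values of Spdef and Foxa3 was not tested.

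Ciliated cell genes, set beside Foxj1, had a called peak in both lists for 12 of 18, in the PBS list only for Tekt4 and Spag6l, and in neither for 4. Over those 12, the median of the strongest peaks was 4.69 for OVA and 4.41 for PBS, both well under the 15.2 and 17.3 of Foxj1. The highest were Hydin, Cfap44 and Dnah9 at 17.7, 14.7 and 11 in the OVA list, and Cfap44, Hydin and Rsph4a at 12.3, 7.53 and 7.36 in the PBS list. Other cells of the tissue were represented as well. Of the looked-up markers a peak was found in both lists for all 4 of alveolar type 1 cells, 4 of 5 of alveolar type 2 cells, all 3 of endothelium and 3 of 4 of leukocytes, and for 0 of 3 of oesophagus or skin, a list that holds Trp63.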

How the data were processed

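Per the labels and the study's methods, m6A IP and input libraries came from lung RNA after ribosomal RNA depletion. The authors aligned reads to the Ensembl mouse genome (HISAT2), used exomePeak for peak calling and ChIPseeker for annotation, and the versions of these 3 programs are not given in the sources used here. They deposited 1 peak list per group, and how the 3 mice were combined is not given in the sources used here. Fold enrichment, as deposited, is a ratio (IP over input within the peak), and the log10 p and log10 FDR are deposited scores of the caller. The lists hold no read numbers, so the depth behind each peak is unknown. There were 0 unused columns of per-sample values.

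Deposited starts count from 0: in the OVA list 649 starts lay 1 below the start of the assigned transcript and 20 on it, and in the PBS list 606 and 19. Printed starts were therefore raised by 1. Gene names of called genes came from the reference name table. Lists were compared with Python 3.11.15, numpy 2.4.6 and pandas 2.3.3 by overlap of exonic blocks of at least 1 bp, and the overlap code was tested on simulated data. Figures were drawn with matplotlib 3.10.9. Each OVA peak was paired with the PBS peak of largest overlap, and a difference was called at a ratio of at least 2 or at most 0.5.

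All 10 genes and their peaks may be named. Genes of the other lists were named where a peak was called in 1 list only or, in each list, among the 3 with the highest fold enrichment, with Col2a1 and Acan as cartilage markers and Scgb1a1 and Scgb3a1 named after their values were seen. A gene of the list of other lung transcription factors is not reported here. The genes and lists were chosen with earlier results of these data known. Alternatives were other rules of membership, stricter thresholds (FDR of 0.05, fold enrichment of 2), other definitions of overlap (genomic spans, 50% of both peaks, identical ends), division by the median ratio and other ways of pairing.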

Additional observations from a re-analysis of the deposited data

How the results depend on the processing

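Counts of peaks in each list and of genes with a peak in both lists stayed within 1.5 times under assignment by name alone, by called gene alone, and with either stricter threshold (FDR of 0.05, 2-fold enrichment). By name alone, 8 genes had a peak in both lists, without Grhl2. Counts of OVA peaks without a PBS partner moved from 3 to 6 when 50% of both peaks had to overlap, to 19 when start and end had to be identical, and to 6 when peaks under a fold enrichment of 2 were removed from both lists. The same rules left 31.4%, 89.7% and 19.5% of all OVA peaks without a partner, against 28.6%, 90.5% and 28.6% of the set. PBS peaks without an OVA partner moved from 1 to 4 (20%) with 50% overlap and to 18 (90%) with identical ends, beside 28.3% and 89.3% of all PBS peaks. Overlap of genomic spans and an FDR under 0.05 left both counts at 3 and 1. The 2 pairs with a 2-fold difference remained 2 after division by the median ratio of 1.08, with 50% overlap and, in alternatives chosen after seeing the data, with called genes alone and with pairing from the PBS list. With the mean over overlapping peaks, also chosen after seeing the data, 1 was left, at Spdef. Median fold enrichment over called genes alone was 13.5 for OVA and 15.8 for PBS, against 12.9 and 11, so the order of the lists' medians turned.

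No paired analysis was possible because each group has 1 list and no value per mouse, and for the same reason no mouse was left out in turn. The search for the m6A motif across whole peaks was not run, since the sequence used here covers only the promoter windows. The lists hold no read numbers per peak, so the part that depth has in a peak found in 1 list alone was not tested, and weak peaks such as those at Foxa2, Ehf and Foxj1 with log10 p of -3.57, -3.67 and -2.53, all found in 1 list alone, rest on little.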
